A study of Mus musculus with 5 samples.

Results

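The 9 genes described here encode the machinery by which a cell senses interferon and limits its own answer: the receptor subunits Ifnar1, Ifnar2, Ifngr1 and Ifngr2, the receptor-bound kinases Jak1 and Tyk2, the transcription factor Stat2, and the feedback inhibitors Socs1 and Socs3. They were chosen by symbol, and each matched exactly 1 of the 54532 gene IDs in a table of RNA-seq read counts from mouse kidney. All samples came from wild-type C57BL/6J male mice 8 weeks old, with no engineered allele. The treated group of 2 libraries received DMXAA, an agonist of mouse STING (the adaptor that links cytosolic DNA to interferon induction), at 10 mg/kg intraperitoneally once daily for 3 days, and the control group of 3 libraries received vehicle on the same schedule. Tissue was taken on day 3. The comparison asked how kidney transcript levels differed after DMXAA.

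Type I interferons bind a receptor made of IFNAR1 and IFNAR2, which carry the kinases TYK2 and JAK1. These phosphorylate STAT proteins, of which STAT2 joins IRF9 in the complex ISGF3 and turns on genes through a sequence called the interferon-stimulated response element (ISRE). Interferon gamma binds IFNGR1 and IFNGR2, which use JAK1 and JAK2 and lead to STAT dimers that bind a different element (GAS). SOCS1 and SOCS3 are made in response to these and related cytokines and damp the kinases, SOCS1 acting mainly on interferon signals and SOCS3 mainly on receptors of the interleukin-6 type.

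Promoter windows were read because Stat2, Socs1 and Socs3 are themselves known targets of STAT factors. In the 250 bases before the RefSeq start (GRCm38.p6, the assembly of mm10), all 9 members had an entry, and letters for the ISRE (GAAA, any 2 bases, GAAA) and for GAS (TTC, any 3 bases, GAA) were searched on both strands. ISRE letters stood in 2 of the 9 windows, those of Stat2 and Socs1, against 2.98% of 32851 promoters. GAS letters stood in 2 of the 9, those of Ifnar2 and Socs3, against 7.02%. The 4 windows are printed 5′ to 3′ along the gene with the matches in capitals. The Stat2 window is chr10:128270248-128270497 on the plus strand, the Socs1 window chr16:10785537-10785786 on the minus strand, and the Ifnar2 window chr16:91372533-91372782 on the plus strand. That of Socs3, chr11:117969452-117969616 on the minus strand, ends 86 bases before the RefSeq start, where an annotated exon begins. This Socs3 window lies inside the annotated span of the gene, 117966079 to 117970047, which begins upstream of the RefSeq start.
Stat2: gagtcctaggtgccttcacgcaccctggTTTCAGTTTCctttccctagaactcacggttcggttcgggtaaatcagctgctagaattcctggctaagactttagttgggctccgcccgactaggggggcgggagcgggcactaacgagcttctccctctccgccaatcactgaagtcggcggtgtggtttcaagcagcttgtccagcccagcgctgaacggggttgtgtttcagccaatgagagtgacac
Socs1: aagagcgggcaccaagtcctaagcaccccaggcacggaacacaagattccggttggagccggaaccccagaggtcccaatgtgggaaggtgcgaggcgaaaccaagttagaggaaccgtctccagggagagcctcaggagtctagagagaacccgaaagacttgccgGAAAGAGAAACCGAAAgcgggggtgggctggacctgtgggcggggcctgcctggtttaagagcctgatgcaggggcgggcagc
Ifnar2: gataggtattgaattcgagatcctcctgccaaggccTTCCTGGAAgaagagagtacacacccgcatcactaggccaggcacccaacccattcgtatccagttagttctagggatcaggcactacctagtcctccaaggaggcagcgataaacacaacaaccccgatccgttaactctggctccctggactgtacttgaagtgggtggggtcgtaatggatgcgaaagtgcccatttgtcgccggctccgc
Socs3: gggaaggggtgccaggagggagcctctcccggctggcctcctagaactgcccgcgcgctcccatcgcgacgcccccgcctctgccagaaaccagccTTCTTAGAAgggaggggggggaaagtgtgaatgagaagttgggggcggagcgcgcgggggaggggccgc
In Stat2 the match, TTTCAGTTTC on the printed strand, began 222 bases before the start. In Socs1 a pair of overlapping ISRE matches, GAAAGAGAAA and GAAACCGAAA, began 83 and 77 bases before the start. The GAS letters of Ifnar2 (TTCCTGGAA) began 214 bases and those of Socs3 (TTCTTAGAA) 154 bases before it. A match describes letters only and shows no binding.

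Libraries held 17667490 to 20264228 counts. Proximal tubule markers (7 of 7 detected, 7801 to 9264 CPM summed in vehicle and 9365 to 9975 CPM in DMXAA) and podocyte, distal and collecting duct markers were present in every library. The vehicle libraries were not alike. Vehicle library 1 held 402.8 CPM of 5 adipose markers against 0.17 to 8.60 CPM elsewhere, and the 5 neutrophil markers summed to 2.22, 18.1 and 47.0 CPM in vehicle and to 2.89 and 4.88 CPM in DMXAA. All 5 red blood cell markers were lower in both DMXAA libraries than in every vehicle library, against 12.3% of all genes. Their sums were 280.5, 170.2 and 73.3 CPM in vehicle against 52.3 and 29.9 CPM in DMXAA, with a median log2 fold change of -2.06. By edgeR 0 were called, against 0% of all genes. All 5 had an unadjusted p below 0.05, against 2.65% of all genes in the lower direction. The red blood cell difference runs alongside those of the members, and its part in them was not tested. CPM are read counts relative to library size, scaled between libraries by TMM. Whether each library is a separate mouse is not stated in the labels, and p-values here measure only the spread between these samples, which may be technical.

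In the edgeR quasi-likelihood test over 16226 genes, 0 of the 9 members were called at an adjusted p below 0.05, against 0% of all genes. All 9 passed the filter on low counts. Unadjusted, 1 member (Jak1) had a p below 0.05, against 6.55% of all genes (1062 genes). The DMXAA libraries lay beyond all vehicle libraries for 4 members, of which Ifnar2 and Jak1 were higher and Ifngr1 and Ifngr2 lower, against 26.0% of all genes. DESeq2 also called 0 members, against 0.405% of all genes (58 genes). Its unadjusted p was below 0.05 for 2 members, Jak1 and Socs3, and the share of all genes at that threshold is not given here. The 4 receptor subunits and 2 kinases were even across the vehicle libraries, with ranges of 0.14 to 0.23 on the log2 scale against a median of 0.31 for all genes with an average log2 CPM above 1. Stat2, Socs1 and Socs3 had vehicle ranges of 1.05, 1.34 and 2.10, each wider than the difference between the groups. In whole tissue, fewer cells of a type and less RNA per cell cannot be told apart.

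**Figure D1:**
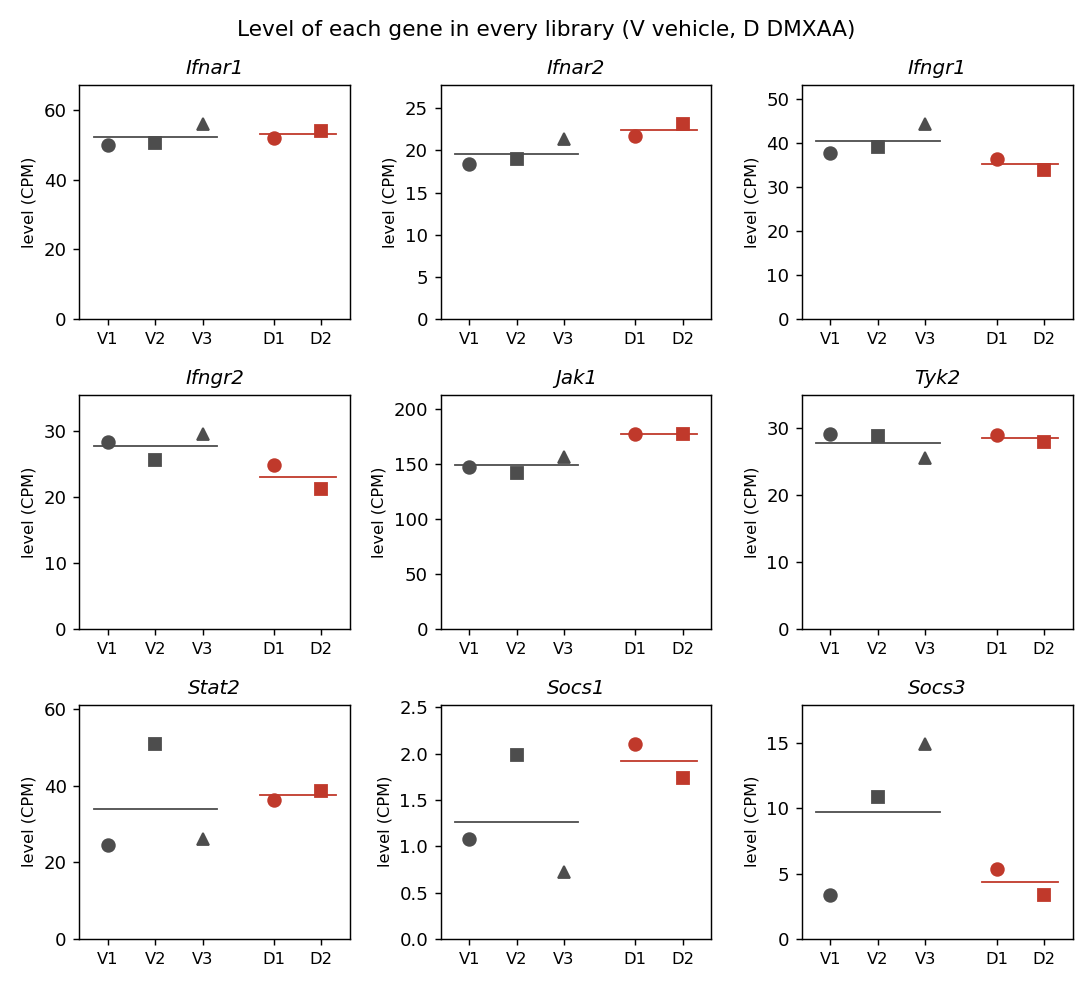
Normalised level (CPM, linear axes from 0) of the 9 genes in the 3 vehicle libraries (V1 to V3, grey) and the 2 DMXAA libraries (D1, D2, red), with 1 point per library and a line at each group mean. The receptor and kinase genes lie close to level, Jak1 is near 177 CPM in both DMXAA libraries against 142 to 157 CPM in vehicle, and Stat2, Socs1 and Socs3 scatter among the vehicle libraries.

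Ifnar1 (ENSMUSG00000022967, chromosome 16, 91485238 to 91507441, mm10), the receptor subunit that carries TYK2, was at 49.9, 50.6 and 56.0 CPM with vehicle against 51.9 and 54.0 CPM with DMXAA. Both DMXAA values lay inside the vehicle range. The fold change was 1.02, with a 95% interval of 0.87 to 1.19, so a change of 2-fold in either direction lies outside it. Ifnar2 (ENSMUSG00000022971, chromosome 16, 91372783 to 91405589), the subunit that binds the ligand most tightly and carries JAK1, was at 18.4, 19.0 and 21.4 CPM with vehicle against 21.7 and 23.1 CPM with DMXAA. Both DMXAA libraries were above every vehicle library. Its log2 fold change was 0.19 (SE 0.12, edgeR adjusted p = 0.766), a fold of 1.14 with an interval of 0.94 to 1.39.

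Both interferon gamma receptor genes lay in the other direction. Ifngr1 (ENSMUSG00000020009, chromosome 10, 19591949 to 19610229), the ligand-binding chain, was at 37.9, 39.2 and 44.4 CPM with vehicle against 36.5 and 34.0 CPM with DMXAA. Ifngr2 (ENSMUSG00000022965, chromosome 16, 91547072 to 91565623), the chain that brings JAK2, was at 28.3, 25.6 and 29.6 CPM with vehicle against 24.9 and 21.2 CPM with DMXAA. For each gene both DMXAA libraries were below every vehicle library. The log2 fold changes were -0.20 (SE 0.11, edgeR adjusted p = 0.750) for Ifngr1 and -0.27 (SE 0.12, edgeR adjusted p = 0.742) for Ifngr2, and the intervals, 0.73- to 1.04-fold and 0.68- to 1.01-fold, included no change. Whether the gamma receptor genes differed from the alpha and beta receptor genes in their response was not tested.

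Ifnar2, Il10rb, Ifnar1 and Ifngr2 stand in this order on the plus strand of chromosome 16 within 192841 bases, with 1 further annotated protein-coding gene, Gm21970, in that interval. Il10rb, the chain shared by the receptors for interleukin-10, interleukin-22 and interferon lambda, was at 29.8, 30.1 and 29.3 CPM with vehicle against 30.3 and 31.2 CPM with DMXAA (log2 fold change 0.05, SE 0.09). Neighbours in this stretch therefore had estimates on both sides of 0, from -0.27 for Ifngr2 to 0.19 for Ifnar2. Gm21970 overlaps 315 exon bases of Ifnar2 on the same strand and had 0 counts in all 5 libraries.

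Jak1 (ENSMUSG00000028530, chromosome 4, 101152367 to 101265282), the kinase used by both interferon receptors, was at 147.2, 142.2 and 156.8 CPM with vehicle against 177.4 and 177.1 CPM with DMXAA. The DMXAA libraries were nearly equal and lay above all vehicle libraries. The log2 fold change was 0.25 (SE 0.09), a fold of 1.19 with an interval of 1.03 to 1.38. Its unadjusted p in edgeR was 0.0265, rank 571 of the 16226 genes, and the adjusted p was 0.742. The unadjusted p was 0.130 without DMXAA library 1, 0.133 without DMXAA library 2 and 0.0586 with a replicate block. Jak1 and Raver2 overlap by 4 exon bases on opposite strands. Tyk2 (ENSMUSG00000032175, chromosome 9, 21104068 to 21131243), the kinase carried by IFNAR1, was at 29.2, 28.8 and 25.5 CPM with vehicle against 29.1 and 28.0 CPM with DMXAA. The groups overlapped, and the fold was 1.03 with an interval of 0.86 to 1.22. An antisense gene, 1700084C06Rik, overlaps 554 exon bases of Tyk2 and had 0 counts. The sign of the Tyk2 estimate, which was near 0, changed with a transcript length offset (-0.017), with a replicate block (-0.024) and without vehicle library 3 (-0.025).

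**Figure D2:**
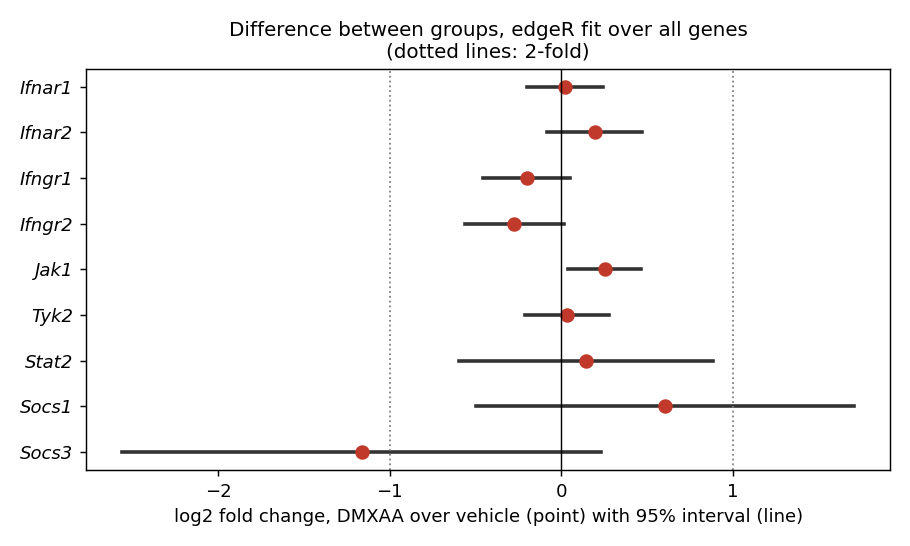
Log2 fold change of DMXAA over vehicle for each gene (points) with its 95% interval (lines) from the edgeR fit over all genes, with dotted lines at 2-fold. The 6 receptor and kinase genes have intervals inside the dotted lines, the Jak1 interval starts just above 0, and the Socs1 and Socs3 intervals reach past 2-fold.

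Levels of different genes are compared per kilobase as TPM (counts per length, scaled to the same sum in every library), here over the mean annotated transcript length. Jak1 was the most abundant member, at 138.7 to 188.4 TPM over the 5 libraries, followed by Ifngr1 at 44.4 to 58.7 TPM and Ifnar1 at 35.4 to 43.2 TPM. These ranges did not overlap. Stat2 (19.7 to 35.8 TPM), Ifnar2 (15.1 to 19.98 TPM) and Ifngr2 (12.9 to 18.2 TPM) followed, with each neighbour's range overlapping the next. Tyk2 was at 9.78 to 11.6 TPM, Socs3 at 4.22 to 18.9 TPM and Socs1 at 0.35 to 1.01 TPM, the lowest. The Socs3 range spanned that of Tyk2, while the Socs1 range lay below all others. With union exon length in place of the mean, Jak1 was at 48.0 to 67.0 TPM and Ifngr1 at 32.6 to 41.9 TPM, and Stat2 moved from the fourth place to the sixth, below Ifngr2 and Ifnar2. The first 3 places and the last 3 were the same under both lengths.

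**Figure D3:**
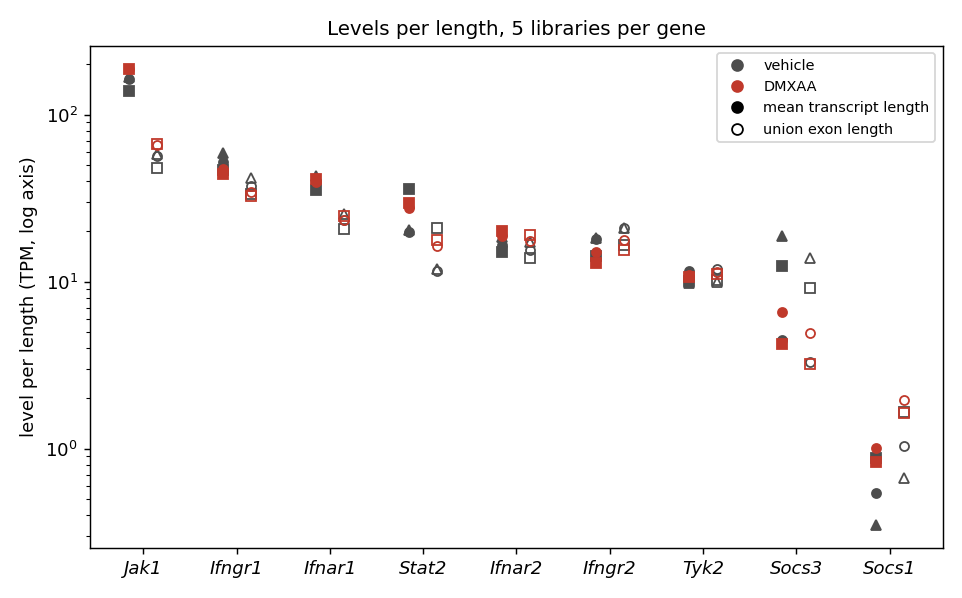
Level per length (TPM, log axis) of each gene in the 5 libraries, ordered by the mean, with vehicle in grey and DMXAA in red. Filled points use the mean transcript length and open points the union exon length; Jak1 is highest and Socs1 lowest under both.

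Ratios within a library do not depend on its depth. The TPM ratio of Ifnar1 to Ifnar2 was 2.40, 2.35 and 2.32 in vehicle and 2.12 and 2.06 in DMXAA, so it was lower in both DMXAA libraries. Over the 3 ratios computed, exact two-sided permutation tests gave p = 0.2 for this one, 0.6 for Ifngr1 to Ifngr2 and 0.4 for Jak1 to Tyk2 (0.6 for each after Benjamini-Hochberg adjustment). The test doubles the smaller tail, so 0.2 is the smallest p that it can give with these libraries. The Ifngr1 to Ifngr2 ratio was 2.88, 3.30 and 3.23 in vehicle and 3.15 and 3.46 in DMXAA, and the groups overlapped. Jak1 to Tyk2 was 14.1, 13.8 and 17.2 in vehicle and 17.1 and 17.7 in DMXAA, where vehicle library 3 exceeded DMXAA library 1. These ratios scale with the lengths used, but their order over libraries does not.

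Stat2 (ENSMUSG00000040033, chromosome 10, 128270559 to 128292849), the STAT specific to ISGF3, was at 24.5, 50.9 and 26.2 CPM with vehicle against 36.2 and 38.7 CPM with DMXAA. Vehicle library 2 was the highest of all 5 libraries, and both DMXAA libraries lay between it and the other vehicle libraries. Over all libraries the log2 fold change was 0.15 (SE 0.31, edgeR adjusted p = 0.925). Without vehicle library 2 it was 0.57 (unadjusted p = 0.0012; edgeR adjusted p = 0.273, with 0.273 to 1 over the 13 alternatives), and without vehicle library 1 or 3 it was -0.046 or -0.0092. The size and sign of the Stat2 estimate therefore depended on which vehicle libraries were kept.

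Socs1 (ENSMUSG00000038037, chromosome 16, 10782240 to 10785536), whose protein blocks JAK1 and TYK2, had few reads, with 20, 35 and 13 counts in vehicle and 38 and 35 in DMXAA. These were 1.08, 1.99 and 0.72 CPM with vehicle against 2.11 and 1.74 CPM with DMXAA. Vehicle library 2 again lay among the DMXAA values, while the other vehicle libraries were lower. The log2 fold change was 0.61 (SE 0.46, edgeR adjusted p = 0.801), with an interval from 0.71- to 3.26-fold. Without vehicle library 2 it was 1.09 (unadjusted p = 0.0311; edgeR adjusted p = 0.398, with 0.398 to 1 over the alternatives), and it was 0.33 without vehicle library 3 and 0.36 with a replicate block. A 2-fold higher level of Socs1 with DMXAA lies within the interval and could not be told from no difference. The parts of depth and of scatter between vehicle libraries in the width of the interval were not tested.

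Target genes of ISGF3, listed with earlier results of these data known, were read in the same libraries. Whether their levels reflect interferon signalling was not tested. Their list has 14 genes, whose summed level was 284.6, 668.6 and 319.6 CPM with vehicle against 832.7 and 1026 CPM with DMXAA. All 14 had estimates above 0, against 46.9% of all genes, with a median log2 fold change of 0.80 against -0.01, and 8 had an unadjusted p below 0.05 in the higher direction, against 3.89% of all genes. None was called by edgeR. The smallest p-values belonged to Rsad2, Ifi44 and Oas1a, antiviral effectors, and DESeq2 called these 3 of the 14, against 0.405% of all genes. The count of 8 was 14 without vehicle library 2 and 5 without vehicle library 3, none of them lower. The share of all genes in those fits is not given here, so 3.89% is not their background. Without DMXAA library 2 the median log2 fold change of the list was 0.71. Irf7, an interferon-induced transcription factor, had the highest level on the list in every library, at 48.8, 192.6 and 68.4 CPM with vehicle against 342.7 and 478.0 CPM with DMXAA. Without Irf7, left out after the values were seen, the other 13 genes summed to 235.9, 476.0 and 251.2 CPM with vehicle against 489.9 and 547.7 CPM with DMXAA, so vehicle library 2 stood near DMXAA library 1. As for Stat2, vehicle library 2 was the highest of all libraries for 2 targets, Bst2 and Ifit3, while a DMXAA library was the highest for the other 12.

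**Figure D4:**
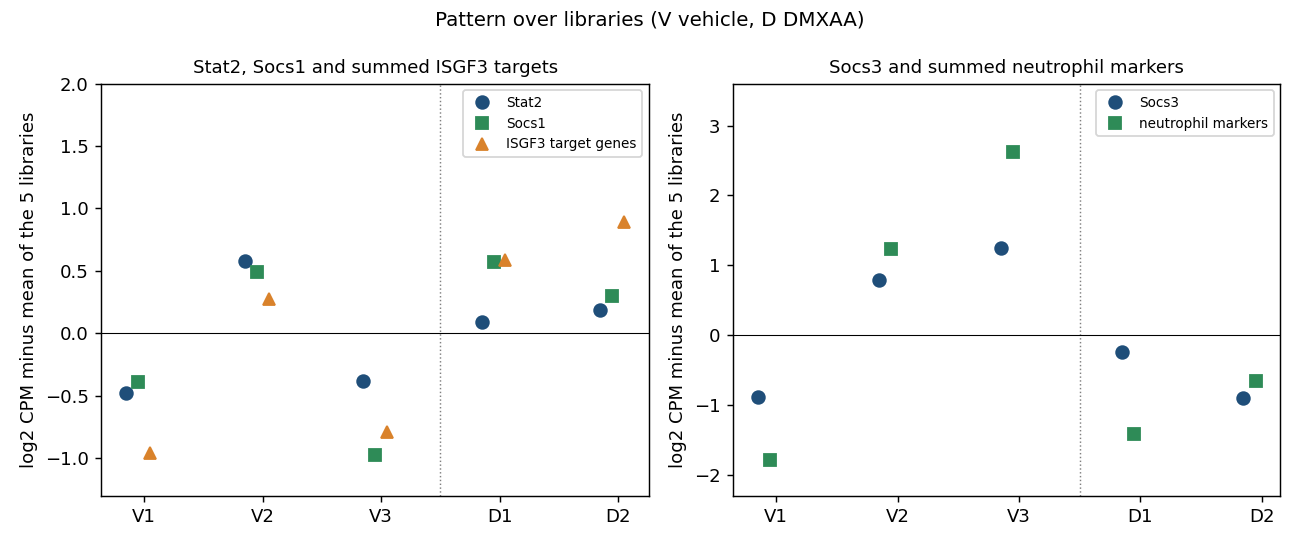
Log2 CPM minus its mean over the 5 libraries for Stat2, Socs1 and the summed ISGF3 target list (left), and for Socs3 and summed neutrophil markers (right), with vehicle libraries V1 to V3 and DMXAA libraries D1 and D2. Vehicle library 2 stands at 0.58 for Stat2 and 0.27 for the ISGF3 targets, and Socs3 and the neutrophil markers are both highest in vehicle library 3 (1.25 and 2.62).

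Socs3 (ENSMUSG00000053113, chromosome 11, 117966079 to 117970047), the inhibitor induced by STAT3, had the largest difference and the widest scatter among the members. It was at 3.41, 10.9 and 14.97 CPM with vehicle against 5.33 and 3.38 CPM with DMXAA. Vehicle libraries 2 and 3 were high, and vehicle library 1 was as low as the DMXAA libraries, so the groups overlapped. The log2 fold change was -1.16 (SE 0.58, edgeR adjusted p = 0.750), with an interval from 0.17- to 1.17-fold. Without vehicle library 1, which is rich in adipose transcripts, it was -1.58 (unadjusted p = 5.41e-04; edgeR adjusted p = 0.2002, with 0.2002 to 1 over the alternatives), without vehicle library 3 it was -0.71, and with a replicate block it was -0.54. The summed level of the 5 neutrophil markers was also highest in vehicle libraries 3 and 2. S100a8 and S100a9 held most of that signal, while Mpo had a single count, in DMXAA library 2, and Ly6g was at 0 in vehicle library 1 and in both DMXAA libraries. Summed markers of all leukocytes were at 64.2, 76.6 and 100.1 CPM with vehicle against 90.4 and 62.4 CPM with DMXAA, which overlapped. The part of these cells in the Socs3 values was not tested.

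Target genes of STAT3 were mixed. Of 12 tested from a list of 13, 5 had estimates above 0 and 7 below, with 2 higher and 3 lower at an unadjusted p below 0.05, against 3.89% and 2.65% of all genes, and 0 called. The median log2 fold change was -0.14, and its sign changed with the libraries kept: it was 0.22 without vehicle library 2, 0.04 without vehicle library 3, 0.10 without DMXAA library 1 and 0.34 with a replicate block, against -0.41 without vehicle library 1 and -0.29 without DMXAA library 2. Junb, an AP-1 subunit, was at 30.2, 32.2 and 56.1 CPM with vehicle against 19.98 and 21.04 CPM with DMXAA, below every vehicle library. The acute-phase genes Saa1 and Saa3 were at most 0.61 CPM in vehicle. In DMXAA Saa1 was at 9.49 and 123.1 CPM and Saa3 at 1.28 and 27.1 CPM, so DMXAA library 2 was far above DMXAA library 1 for both. Socs3 was thus lower in DMXAA library 2, the library with most Saa1, than in DMXAA library 1.

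Among the ligands, 16 of 21 interferon genes had 0 counts in all 5 libraries, Ifnb1 included, and no interferon gene had more than 2 counts in a library. With 3 counts as the upper limit of a 0, levels of up to 0.148 to 0.170 CPM remain possible from counting error alone. Reads shared between the near-identical Ifna genes make those rows uncertain. Of the 6 other ligands, Lif alone passed the filter, at 0.32, 0.68 and 0.39 CPM with vehicle against 0.55 and 0.55 CPM with DMXAA.

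Of 23 other receptors that signal through JAK kinases, 22 were tested and 0 were called, against 0% of all genes. Estimates lay above 0 for 8 and below 0 for 14, against 46.9% of all genes above 0. An unadjusted p below 0.05 was found for 0, against 6.55% of all genes. Il22ra1, the epithelial chain of the interleukin-22 receptor, was at 2.87, 3.87 and 2.44 CPM with vehicle against 3.995 and 5.52 CPM with DMXAA (log2 fold change 0.64, SE 0.29). Csf2ra, which binds the myeloid growth factor GM-CSF, was at 11.1, 11.7 and 13.6 CPM with vehicle against 9.60 and 9.55 CPM with DMXAA. Il4ra, the interleukin-4 receptor chain, was at 21.1, 25.5 and 28.2 CPM with vehicle against 21.4 and 19.8 CPM with DMXAA. Ifnlr1, the specific chain of the interferon lambda receptor, chosen after its values were seen, was at 5.51, 3.30 and 4.83 CPM with vehicle against 4.33 and 2.74 CPM with DMXAA.

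Of 8 other JAK, STAT and Irf9 genes, 0 were called and 1 had an unadjusted p below 0.05, against 0% and 6.55% of all genes. That gene was Jak3, the kinase of lymphoid cytokine receptors, at 23.1, 19.0 and 22.8 CPM with vehicle against 17.5 and 16.6 CPM with DMXAA (log2 fold change -0.35, SE 0.13, edgeR adjusted p = 0.742). Irf9, the DNA-binding partner of STAT2 in ISGF3, was at 28.7, 44.6 and 28.9 CPM with vehicle against 42.1 and 51.5 CPM with DMXAA (log2 fold change 0.46, SE 0.21). As for Stat2, vehicle library 2 was the highest vehicle library, but DMXAA library 2 exceeded it. Stat5b was at 49.1, 49.6 and 59.2 CPM with vehicle against 56.3 and 57.5 CPM with DMXAA.

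Other feedback genes were read beside Socs1 and Socs3. All 6 other SOCS family genes overlapped between the groups, where 26.0% of all genes did not overlap. The smallest p-values among them belonged to Socs4 (log2 fold change 0.11, SE 0.11), Socs2 (-0.17, SE 0.20) and Socs7 (-0.09, SE 0.11). Of 12 other negative regulators, 0 were called and 1 had an unadjusted p below 0.05, against 0% and 6.55% of all genes. That gene was Usp18, which displaces JAK1 from IFNAR2 and also stands in the ISGF3 target list. It was at 6.00, 9.78 and 6.10 CPM with vehicle against 11.8 and 13.4 CPM with DMXAA. Both DMXAA libraries were above all vehicle libraries, with a log2 fold change of 0.79 (SE 0.25, edgeR adjusted p = 0.724). The tyrosine phosphatase gene Ptpn1 was at 52.2, 61.5 and 60.5 CPM with vehicle against 63.4 and 66.3 CPM with DMXAA, and Pias4, a SUMO ligase that inhibits STAT signalling, at 28.4, 34.9 and 26.0 CPM with vehicle against 25.0 and 25.9 CPM with DMXAA.

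Genes whose pattern over the 5 libraries was closest to a member were ranked by the root mean square difference of centred log2 CPM, as a description. Nearest to Stat2 among 13327 genes were Ly6a (0.06), Parp9 (0.08) and Trim21 (0.10). Ly6a was at 634.7, 1195 and 602.9 CPM with vehicle against 892.4 and 934.5 CPM with DMXAA, with vehicle library 2 highest as for Stat2. Nearest to Socs1 were Gbp8 (0.17), Gm44785 (0.17) and Ifi213 (0.18), and among those nearest to Socs3 were Abcb1b (0.29) and Ogdhl (0.30). Abcb1b was at 7.30, 20.98 and 21.9 CPM with vehicle against 11.9 and 9.30 CPM with DMXAA, and vehicle library 3 was again the highest.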

How the data were processed

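Raw read counts per Ensembl gene ID were deposited by the authors in 1 table for 5 kidney libraries. The tools named in the submitters' processing notes are HISAT2, featureCounts, Subread and DESeq2 1.16.1, with build mm10. The annotation, the strand setting and how multi-mapping reads were counted are not stated here, so overlapping and antisense genes cannot be told apart. Per the labels' protocols 2 library kits are named, with no assignment to samples. Columns were matched to samples by name (CO as control, XA as DMXAA).

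GENCODE M21 gave symbols for 99.9% of 54532 IDs, positions and lengths. edgeR 4.0.16 (R 4.3.3, TMM, default filter, group only, two-sided quasi-likelihood test) tested 16226 genes, with calls at a Benjamini-Hochberg adjusted p under 0.05. Intervals are 95%, from the test's standard error. TPM were computed from the deposited counts. Every pair of libraries differed beyond sampling noise (chi-square 7.94 to 42.4 per degree of freedom). The procedure was tested on simulated data. Promoter sequences are RefSeq's (GRCm38.p6).

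Members, gene lists and tests were chosen with earlier results of these data known. Named genes were the 9 members, the 3 smallest p-values of each list, and the 3 nearest patterns to Stat2, Socs1 and Socs3. Of these, 1 gene list and a few genes are not reported here. Alternatives were DESeq2 1.42.0, RLE size factors, no filter, at least 1 CPM in 2 libraries, a robust fit, leaving out mitochondrial and the 20 most abundant genes, a replicate block, a transcript length offset, union exon length, a promoter window to +50 and each library left out. Overlap counts without each library and the ISGF3 target sum without Irf7 were added after seeing the data.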

Additional observations from a re-analysis of the deposited data

How the results depend on the processing

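No member was called under any of 13 alternatives (lowest adjusted p 0.2002, Socs3 without vehicle library 1). Ifnar2, Ifngr1, Ifngr2, Jak1, Socs1 and Socs3 kept the sign of their estimates throughout. Reversed signs were those of Tyk2 (-0.024 with a replicate block, -0.017 with a transcript length offset, -0.025 to 0.065 without single libraries), Ifnar1 (-0.015 to 0.076 without single libraries) and Stat2 (-0.046 to 0.57 without single libraries). Over all genes, 0 were called, against 58 with DESeq2, 34 with no expression filter (0.121%), 4 with a replicate block and 0 to 2 without single libraries. Members with an unadjusted p below 0.05 numbered 1 in the main fit, where 6.55% of all genes had one. They numbered 2 with DESeq2, 2 with no filter, 2 with a transcript length offset and 0 with a replicate block. Without single vehicle libraries they numbered 1 to 4 (4 without vehicle library 2). The share of all genes in these alternative fits is not given here, so 6.55% is not their background. Other pathway genes called numbered 0, against 3 with DESeq2, 7 with no filter and 1 with a replicate block. The 7 were Rsad2, Irf7, Ifi44 and Oas1a of the ISGF3 list and Saa1, Saa2 and Saa3 of the STAT3 list. The 1 with a replicate block was Saa1. ISGF3 target genes with an unadjusted p below 0.05 ranged from 5 to 14 without single vehicle libraries, where the share of all genes is not given. Members whose groups did not overlap numbered 4 and, without single libraries, 5 or 6, where 37.1% to 48.2% of all genes did not overlap. The replicate numbers were not taken to pair the samples, since the labels state no pairing. Deviations of same-numbered libraries from their group means correlated at 0.075 and 0.081 over genes. With 2 DMXAA libraries these deviations mirror each other, so the correlations cannot decide whether samples were paired. A promoter window to +50 held GAS letters in 3 of the 9 members, against 8.3% of all promoters, and ISRE letters in 2, against 3.44%. Socs1 had few reads, at 13 to 38 counts per library, and the part of depth in its wide interval was not tested.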

Other observations

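Some receptor genes of the JAK-STAT list differed widely between vehicle libraries. These genes were chosen after their values were seen. Epor, the erythropoietin receptor gene, was at 16.4 CPM in vehicle library 1, against 0.97 to 2.49 CPM elsewhere, and Lepr, the leptin receptor gene, was at 39.1 CPM there, against 3.70 to 19.3 CPM. Vehicle library 1 was also the one with 402.8 CPM of summed adipose markers and 114.5 CPM of summed urothelial markers, against 2.22 to 12.7 CPM of the latter elsewhere. Prlr, the prolactin receptor gene, had its lowest value in that library, at 17.1 CPM against 30.7 to 51.5 CPM. The groups overlapped for all 3 genes. Stat3, which SOCS3 restrains, was at 82.5, 141.2 and 146.2 CPM with vehicle against 113.4 and 97.7 CPM with DMXAA, with vehicle libraries 3 and 2 highest as for Socs3.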
